A study of Mus musculus with 11 samples.

Results

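Immune-inflamed and immune-excluded tumours of the KPP-eGFP line were compared through 4 exome libraries, 2 labelled Inflamed and 2 labelled Excluded, out of 11 libraries in the series. The 4 were chosen by the treatment label alone. They are called inflamed 1-3, inflamed 2-1, excluded 1-4 and excluded 2-2 after the numbers in their titles; the labels do not say what those numbers mark. The other libraries are 3 of cultured KPP-eGFP cells and 1 of an immune-desert tumour, used here as reference, and 3 of spleen, which have no calls of their own.

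KPP-eGFP cells come from the primary pancreatic ductal adenocarcinoma of a genetically engineered mouse, were given an eGFP reporter with a PiggyBac vector, and are clonal. All 4 tumours grew from that line as STAMP microtumours, small tumours seeded in an array of laser-made pores in the ear skin, and were taken 3 weeks after implantation. The labels state neither genotype nor treatment for the hosts beyond the immune phenotype, and no age; the study's methods describe young adult male mice. A legend of the study calls the sequenced material pooled tumour biopsies, so a library may stand for more than 1 tumour, and the labels give neither the number pooled nor the animals. Errors and p-values below therefore describe how these libraries vary, and part or all of that variation could be technical. The tissue label of the 4 is skin, and tumour cell content was checked only through the variants of the line.

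In an immune-inflamed tumour T cells lie among the tumour cells, whereas in an immune-excluded tumour they stay in the surrounding stroma or at the margin, and in an immune desert few are found. These patterns are known to relate to the response to T cell-directed therapy. A somatic variant is a base change that the tumour cells carry and the normal tissue lacks, and its variant allele fraction is the share of sequencing reads with the changed base. Host cells in a biopsy add reads with the reference base, so the fraction of every tumour cell variant falls with the share of host DNA. A variant limited to a subclone could in principle give that subclone another antigen or another way to signal to immune cells.

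The table held 621 variants in 304 genes, and 1313 calls belonged to the 4 tumour libraries. The bases around the variants on which the comparison turns follow, from GRCm38 on the plus strand and 5′ to 3′. Capitals mark the reference base that the variant replaces, the bases it deletes, or the base after which it inserts. Shown first are 9 of the 11 variants called in both excluded and in neither inflamed library, the calls that divided the phenotypes.
Tm7sf3 c.940+5C>T (chr6:146613359-146613387): ggctgggtgggagaGatacctgttttcca
Lrrc19 N245D (chr4:94639226-94639254): gtgtgaagagctatTgaaagatgaattcc
Meis3 c.944+2_944+3dupTG (chr7:16183853-16183881): gcaggtgaacaactGgtgagtgattgggc
Hspbp1 L297R (chr7:4663476-4663504): ggaaatctgtcacaAggctatgggaggac
Asna1 c.459-4_459-3dupCC (chr8:85019660-85019688): gcctttcaccagccTgggggggagatgag
Lrmp c.558-4A>C (chr6:145160515-145160543): ccttcatctcccccAcagcacttcagcta
Nod2 L929L (chr8:88675434-88675462): caattctgtctagcCtggtaggaaacaac
Adcy7 deletion (chr8:88326067-88326095): acttacTGCAGCTCCTGGTTGTTTtgcag
4930456L15Rik n.938-7T>C (chr4:103311564-103311592): acaggaccattgtaTttacagcagctgtg

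Shown next are the variants that did not fall with the host DNA like the rest, and those of Calr, Hhip and Arid1a from the lists of immune and cancer genes described below.
Arap2 G230W (chr5:62748973-62749001): tacgccattcgtccCgtttccagaatgtg
Hebp1 V86L (chr6:135152949-135152977): ttcattgggaaacaCggcaaaagagacag
Sfi1 P1003S (chr11:3134640-3134668): gctgtaccactctgGggacctctgactcc
Tlr13 F448V (chrX:106157986-106158014): tgaagcacttggagTttctctctctttca
Calr c.1053+4G>T (chr8:84842926-84842954): caaagagctctgacCcaccttggtaacac
Hhip N29S (chr8:80057416-80057444): ctccgctcccctcgTtcctttccccaaac
Arid1a V1566I (chr4:133685172-133685200): tgtcatggggggaaCaggggctgaaggac

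Shown last are variants with the smallest p-values between the phenotypes, lower in the excluded libraries for Kpna7, Gadd45gip1 and Ifna11 and higher for Arntl2 and Mylk3.
Kpna7 I326L (chr5:144994044-144994072): cacaatgttgcctaTagtgtggagacaag
Gadd45gip1 P71L (chr8:84832488-84832516): catctccggggtgcCcccggcctccctgt
Ifna11 S139A (chr4:88820359-88820387): tgacccaggaagacTccctgctggctgtg
Arntl2 G535S (chr6:146829787-146829815): acggaccacttcccGgtaagttgtccttg
Mylk3 E287G (chr8:85359030-85359058): tgctggatgaggttTcttgaccaccacct

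The share of tumour cell DNA did not separate the phenotypes. It was read from the ratio of each variant's fraction in a tumour to its mean in the culture libraries, with the median taken over the 258 variants called in all 8 tumour and culture libraries. This ratio was 0.246 in inflamed 1-3, 0.295 in inflamed 2-1, 0.477 in excluded 1-4 and 0.278 in excluded 2-2. The second excluded library thus lay between the inflamed libraries, and only excluded 1-4 stood above them. The means were 0.271 ± 0.0350 (SD, n = 2) and 0.377 ± 0.141 (SD, n = 2). The difference, 0.107, gave p = 0.667 in an exact two-sided permutation test over all 6 assignments of the labels, for which 0.333 is the smallest possible p. Without excluded 1-4 the difference was 0.00713. The desert library, at 0.627, was above all 4.

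The order was alike in the larger classes of variant. Over the 162 variants with a mean culture fraction from 0.25 to 0.75, as for a heterozygous change, the median ratio was 0.257, 0.301, 0.494 and 0.279 in the libraries in the order above. Over the 88 above 0.75, as for a change on all copies, it was 0.226, 0.290, 0.457 and 0.271. Only 8 variants had a culture fraction under 0.25, and there, at 0.223, 0.299, 0.445 and 0.305, excluded 2-2 lay above both inflamed libraries. The chromosome 6 segment, a run of closely spaced variants that are mostly fixed in the line, gave 0.247, 0.296, 0.472 and 0.285 over 66 variants. The chromosome 8 segment, whose 105 variants are mostly near a fraction of 0.43 in culture, gave 0.242, 0.309, 0.488 and 0.283. Excluded 1-4 was thus the highest of the 4 in every one of these sets and inflamed 1-3 the lowest.

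**Figure D1:**
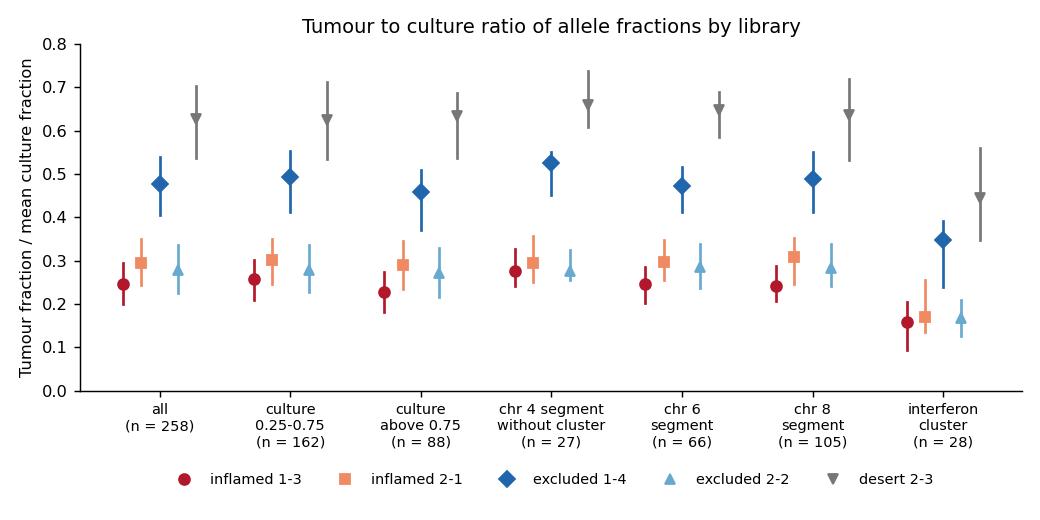
Ratio of the variant allele fraction in a tumour to the mean fraction in culture (vertical axis, no unit) for 7 sets of variants (horizontal axis, n variants each), with the median as a symbol and the 25th to 75th percentile as a line for each library. Excluded 1-4 lies above both inflamed libraries in each set, while excluded 2-2 (0.278 over all 258) lies among them, and the interferon cluster is lower than the other sets in all 5 libraries.

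Calls were slightly more numerous in the excluded libraries. Inflamed 1-3 had 310 calls and inflamed 2-1 had 319, against 361 in excluded 1-4 and 323 in excluded 2-2, so the groups did not overlap, although the nearest libraries differed by only 4 calls. The difference in means was 27.5 calls, with the smallest p that this design allows (exact two-sided permutation test, p = 0.333), and it was 8.50 without excluded 1-4. The lowest fraction called was similar, from 0.0248 to 0.0350. The share of calls with a fraction under 0.1 was 33.2% in inflamed 1-3, 20.1% in inflamed 2-1, 9.97% in excluded 1-4 and 26.3% in excluded 2-2. This share fell as the ratio to culture rose, with excluded 2-2 again between the inflamed libraries.

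The share of variants called was lowest where the library's ratio gave a low fraction, but it did not rise in every step. The value the ratio gives is the mean culture fraction multiplied by the median ratio of the library. From 0.05 to 0.1, 63.5% of 96 variants were called in inflamed 1-3 (Wilson 95% interval 53.6 to 72.5), 58.7% of 46 in inflamed 2-1 (44.3 to 71.7) and 62.3% of 53 in excluded 2-2 (48.8 to 74.1). In excluded 1-4 the figure was 21.9% of 64 (13.5 to 33.4), and variants of a given value there are rarer ones in culture. From 0.1 to 0.15 the 4 libraries called 80.1%, 85.2%, 75% and 82.0%. Below 0.025 none called more than 7.38%. Above 0.15 some bins were lower again, with 3 of 14 variants (21.4%, 7.57 to 47.6) in inflamed 1-3 from 0.15 to 0.2 and 6 of 17 (35.3%, 17.3 to 58.7) in inflamed 2-1 from 0.2 to 0.25. In excluded 2-2 the bins from 0.15 to 0.2 and from 0.2 to 0.25 held 38.9% of 18 and 36.8% of 19. In the highest bin of each library the share was 78.4% to 82.0%, so a call could be missing even where the ratio gave a high fraction.

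**Figure D2:**
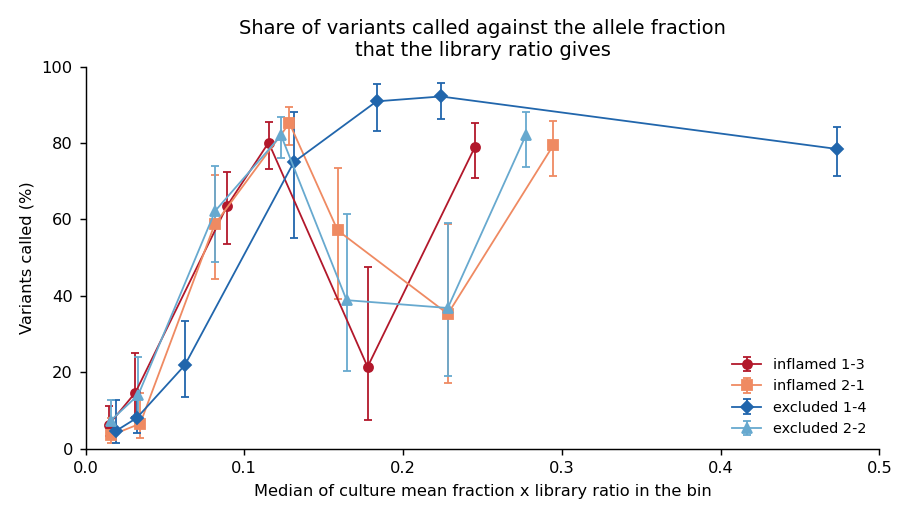
Share of variants called (vertical axis, %) against the median of the mean culture fraction multiplied by the library's ratio in each bin (horizontal axis, fraction), with Wilson 95% intervals as bars, for the 4 libraries. The share rises from under 8% below 0.025 to between 75% and 85.2% from 0.1 to 0.15; the bins from 0.15 to 0.25 that dip hold 14 to 28 variants each.

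Variants shared by the tumours did not sort by phenotype. All 4 libraries called 258 variants, each of which was also called in the desert and in every culture library, and 226 were called in none. Of the rest, 46 were called in 1 library, 38 in a pair and 53 in 3. Excluded 1-4 alone had 20 of the 46, and the other libraries had 8 or 9 each. Among the pairs, the excluded libraries shared 11 variants that no inflamed library had, 1.77% of the 621, while the inflamed libraries shared 0 that no excluded library had, 0% of the 621. The mixed pair of inflamed 1-3 and excluded 1-4 shared 15, more than the excluded pair did. The other mixed pairs shared 7, 4 and 1. Of the 53 variants missing from a single library, 25 were missing from inflamed 1-3, 12 from inflamed 2-1, 3 from excluded 1-4 and 13 from excluded 2-2.

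The Jaccard index, the number of variants that both libraries of a pair called over the number that either called, gave the same picture. It was 0.772 for the inflamed pair and 0.810 for the excluded pair. Mixed pairs ranged from 0.763 (inflamed 1-3 with excluded 2-2) to 0.824 (inflamed 2-1 with excluded 2-2), so both pairs of like phenotype lay inside the range of the mixed pairs. The mean of like pairs minus that of mixed pairs was -0.00676 (exact test over the 3 ways to pair 4 libraries, one-sided p = 0.667, smallest possible 0.333), and it was 0.00368 without the interferon cluster of chromosome 4.

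**Figure D3:**
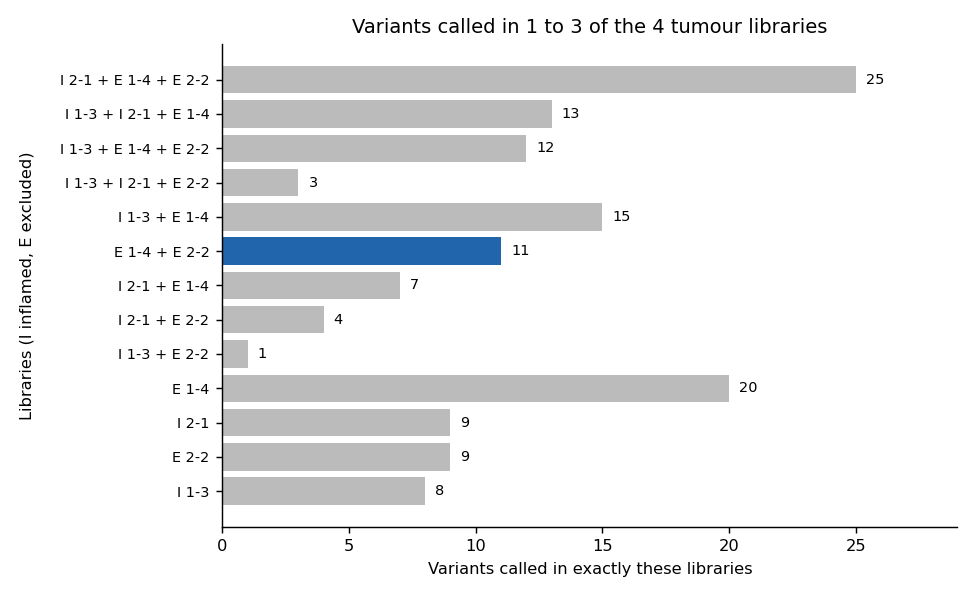
Number of variants (horizontal axis) called in exactly the libraries named on the vertical axis, for the 137 variants called in 1 to 3 of the 4 tumour libraries (I, inflamed; E, excluded). The excluded pair (blue) shares 11, fewer than the mixed pair of I 1-3 and E 1-4 with 15, and the inflamed pair has no bar because its count is 0.

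The 11 variants of the excluded pair were led by Tm7sf3 c.940+5C>T, in an intron of a gene for a protein with 7 membrane spans. Its fraction was 0.333 in excluded 1-4, 0.205 in excluded 2-2, 0.600 in the desert and 1.00 in each culture library. Lrmp c.558-4A>C, in an intron of a gene for a membrane protein of the endoplasmic reticulum, was also fixed in culture and had 0.165 and 0.111, with 0.300 in the desert. Their ratios would give 0.246 in inflamed 1-3 and 0.295 in inflamed 2-1, where neither was called. Both genes had further variants that all 4 libraries called, 7 in Tm7sf3 and 5 in Lrmp. Lrmp also had insertion calls at the run of C beside c.558-4A>C, and whether these calls reflect the same event was not tested.

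Protein-changing members of the 11 included Lrrc19 N245D, Hspbp1 L297R and Fbxo22 G9S. Lrrc19, a membrane protein with leucine-rich repeats, had 0.214 and 0.200 in the excluded libraries, was absent from the desert calls, and was called in 2 culture libraries at 0.500 and 0.556. Hspbp1, a nucleotide exchange factor of the HSP70 chaperone, had 0.222 and 0.0897, with 0.288 in the desert and 0.460 to 0.495 in culture. Fbxo22, an F-box subunit of a ubiquitin ligase, had the lowest mean, at 0.0769 and 0.0619, and was one of 3 that the desert library did not call, with Lrrc19 and Meis3. In 10 of the 11, excluded 1-4 was above excluded 2-2, as its ratio to culture was.

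Adcy7 encodes an adenylate cyclase, and the deletion shown above removes the 18 bases in capitals, which lie in an intron. The deposited annotation places it at a shifted position, across the start of an exon, and its effect on the protein was not tested. This deletion had 0.103 and 0.0465 in the excluded libraries, 0.125 in the desert and 0.145 to 0.205 in culture. Meis3, a homeobox gene, had 0.254 and 0.143 for an insertion in the splice donor region. Asna1, an ATPase that delivers tail-anchored proteins to membranes, had 0.179 and 0.122 for an insertion beside a run of G in the sequence above. Nod2, a sensor of bacterial cell wall fragments, had 0.101 and 0.143 for L929L, which leaves the protein unchanged and lies next to a splice site, and it was the only one of the 11 higher in excluded 2-2. The non-coding 4930456L15Rik had 0.0794 and 0.0692.

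As a set, 8 of the 11 lay in a splice site or splice region and 4 were insertions or deletions, so that 9, or 81.8%, were of one kind or the other. Among the 258 variants called in all 4 libraries 20.9% were, and among all 621 variants 18.7%. Those within the chromosome 4, 6 and 8 segments numbered 8 of 11, against 391 of all 621 variants and 226 of the 258 called in all 4 libraries. The culture libraries all called 10 of the 11, at mean fractions from 0.152 to 1.00, and the desert library called 8. The library ratios would put 4 of the 11 above 0.1 in both inflamed libraries, and the lowest at 0.0375 in inflamed 1-3 and 0.0450 in inflamed 2-1, where 14.7% and 6.58% of variants from 0.025 to 0.05 were called. Whether reads covered these sites in the inflamed libraries was not tested here, since the table holds no depth. The paper reports manual inspection of the reads at variants called in a single phenotype, and found nearly all of them in the other samples. Its text does not name those variants, so whether the 11 were among them is not known. With single-base variants alone the count for the excluded pair was 7. With tier 1 calls alone the counts were 14 for the excluded and 4 for the inflamed pair.

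**Figure D4:**
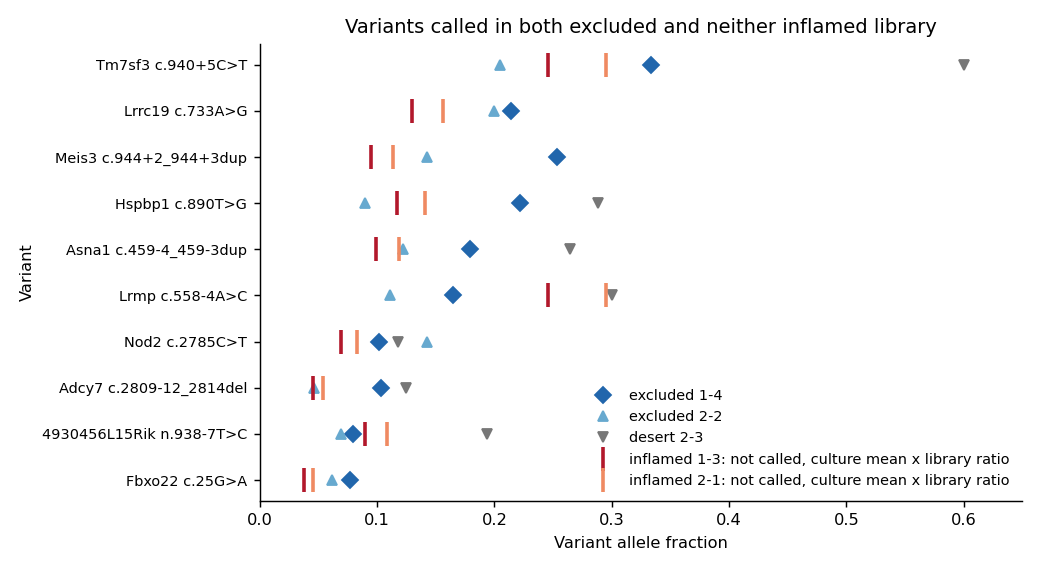
Variant allele fraction (horizontal axis) of 10 of the 11 variants called in both excluded and neither inflamed library (vertical axis), as symbols for the excluded and desert libraries; vertical ticks give the mean culture fraction multiplied by the ratio of each inflamed library, where the variant was not called. The fractions in excluded 1-4 run from 0.0769 to 0.333, and the ticks for Tm7sf3 and Lrmp stand at 0.246 and 0.295.

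To compare variants on an equal footing, each fraction was divided by the ratio of its library, so that a value of 1 stands for a change on all copies in the tumour cells. Of the 258 variants, 0 differed between excluded and inflamed libraries at an adjusted p under 0.05 (limma, 0% called), 10 had an unadjusted p under 0.05, 4 higher and 6 lower in the excluded libraries, and the smallest adjusted p was 0.847. Fitted with the desert and culture libraries as further groups, limma again called 0, with 38 at an unadjusted p under 0.05 and a smallest adjusted p of 0.0982. The error in that fit came partly from the culture libraries, which were not scaled and have another spread. Its p-values are therefore not a more sensitive form of the main test. The median difference, excluded minus inflamed, was 0.00556, and the middle 50% of variants ran from -0.0693 to 0.0655. The median half-width of the 95% interval of a difference, without adjustment for the number of variants, was 0.201. Smaller differences in a single variant were mostly not detectable with 2 libraries a group, and larger ones could also miss the adjusted threshold.

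Scaled fractions of both excluded libraries lay above those of both inflamed libraries for 46 variants, 17.8% of the 258, and below for 44, 17.1%. The counts were nearly equal in both directions in each segment as well, with 11 above and 8 below of 66 on chromosome 6, and 17 above and 18 below of 105 on chromosome 8. On chromosome 4 outside the interferon cluster they were 5 and 7 of 27. The median absolute difference between libraries was 0.0917 for the inflamed pair, 0.0862 for the excluded pair and 0.0913 to 0.106 for mixed pairs, so libraries of unlike phenotype were about as far apart as those of like phenotype.

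**Figure D5:**
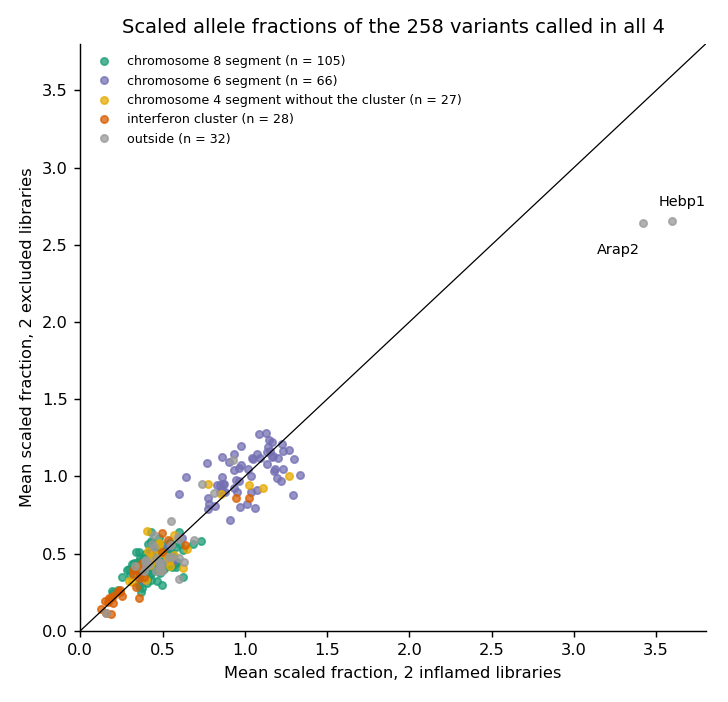
Mean scaled variant allele fraction in the 2 excluded libraries (vertical axis) against the 2 inflamed libraries (horizontal axis), 1 point for each of the 258 variants called in all 4, coloured by place, with the line of equality. Points follow the line near 0.4 for the chromosome 8 and near 1 for the chromosome 6 segment, and Arap2 and Hebp1 stand alone because their fractions were near 1 in every library before scaling.

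The variants with the smallest p-values were small in number and pointed both ways. Kpna7 I326L, in an importin that carries proteins into the nucleus, had fractions of 0.141 and 0.185 in the inflamed and 0.187 and 0.0759 in the excluded libraries. After scaling these were 0.573 and 0.625 against 0.392 and 0.273, a difference of -0.27 (standard error 0.0780, limma adjusted p = 0.847). Gadd45gip1 P71L, in a protein of the mitochondrial ribosome, had 0.725 and 0.518 against 0.345 and 0.355 after scaling. Fgfr1op2 M108V had 1.29 and 1.30 against 0.753 and 1.00, and Inadl c.189+7T>C, in a gene of cell polarity, had 0.651 and 0.602 against 0.450 and 0.362. After scaling the groups did not overlap in any of these, which were picked for a small p between the same groups. Over all 258 variants 17.8% had both excluded libraries above and 17.1% both below. Before scaling, the fractions of the groups overlapped in each of the variants named here. None of the differences passed the test. The 31 reference bases around the Fgfr1op2 site occurred 2 times in the chromosomes of GRCm38, and the placement of its reads was not tested.

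In the other direction, Arntl2 G535S, in a transcription factor of the circadian clock, had fractions of 0.182 and 0.235 in the inflamed and 0.528 and 0.297 in the excluded libraries. Scaled, these were 0.739 and 0.796 against 1.11 and 1.07, a difference of 0.32 (standard error 0.108, limma adjusted p = 0.847). The 13 variants of Arntl2 called in all 4 libraries had together, G535S included, a mean difference of 0.00623. Eqtn V312I, in a protein of the sperm acrosome, had 0.473 and 0.334 against 0.637 and 0.659. Klf1 T305S, in an erythroid transcription factor, had 0.488 and 0.372 against 0.672 and 0.611. Mylk3 E287G and G284A, in a kinase of cardiac myosin, lie 9 bases apart and can share reads, and they had differences of 0.17 and 0.16.

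Genes with at least 4 variants called in all 4 libraries gave steadier values. The highest mean differences were 0.07 in Tm7sf3 (7 variants), 0.05 in Mylk3 (15 variants) and 0.04 in Mmp2, a matrix metalloproteinase (4 variants). The lowest were -0.08 in Inadl (4 variants), -0.07 in 1700034J05Rik (4 variants) and -0.05 in Hook2, a linker of cargo to microtubules (5 variants). All 19 such genes thus lay within 0.09 of no difference, on a scale where a change on all copies is 1. Among single variants with a culture fraction of at least 0.25, the smallest differences were in Zswim4 c.1910-4G>T, Mylk3 P243R, Hoxc13 R256G, Cachd1 c.3629-4C>G and Mylk3 T678I, each under 0.002 in size. For Hoxc13, a homeobox factor of hair and nail, the 95% interval was -0.168 to 0.171.

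Among 9 lists of immune and cancer genes, the antigen presentation list had 1 gene with a variant out of 22. This was Calr, the chaperone calreticulin, which helps load MHC class I. Its c.1053+4G>T change, in an intron, had fractions of 0.10 and 0.161 in the inflamed, 0.292 and 0.164 in the excluded and 0.350 in the desert library. Scaled, these were 0.407 and 0.545 against 0.613 and 0.590, a difference of 0.13 (standard error 0.0847, limma adjusted p = 0.847). The interferon signalling, chemokine, TGF beta and T cell checkpoint lists had 0 genes with a variant.

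Of 22 innate sensing genes, Nod2, Tlr13 and Tlr2 had 7 variants in all. Tlr13, a receptor for bacterial ribosomal RNA on chromosome X, had F448V at 0.196 and 0.246 in the inflamed and 0.398 and 0.264 in the excluded libraries. Scaled values were 0.797 and 0.832 against 0.835 and 0.948 (difference 0.08, standard error 0.104, limma adjusted p = 0.923). Both excluded values thus lay above both inflamed ones, only narrowly after scaling. After scaling 17.8% of the 258 variants had this order. The scaling comes from all chromosomes and its fit to chromosome X was not tested. The libraries called 3, 1, 4 and 4 of the 7, where they called 49.9%, 51.4%, 58.1% and 52.0% of all 621 variants. Nod2 had 5 of the 7, and inflamed 2-1 called 0 of those. Nod2 c.2783+3A>G had 0.132 in inflamed 1-3, 0.317 in excluded 1-4 and 0.104 in excluded 2-2, and E940Q had 0.0521, 0.103 and 0.0971. Tlr2 D199N, in a receptor for bacterial lipoproteins, was called only in culture 1-B, at 0.0667.

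In the WNT and Hedgehog list, Hhip was the gene with variants, and it encodes an inhibitor of Hedgehog ligands. Hhip N29S had 0.113 and 0.164 in the inflamed and 0.201 and 0.118 in the excluded libraries. Scaled values were 0.459 and 0.556 against 0.421 and 0.424, a difference of -0.08 with an adjusted p of 0.883 in limma (standard error 0.0745); it was 0.02 without scaling. Its other variant, c.472+8C>A, was called only in culture 2. In the pancreatic cancer list, Arid1a, a subunit of the SWI/SNF chromatin remodeller, had V1566I at 0.256 and 0.184 in the inflamed libraries and at 0.265 in excluded 1-4, and it was not called in excluded 2-2. Myc T373A was called in 0 of the 4.

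The interferon alpha genes of chromosome 4 had 105 variants between positions 88571259 and 88850606, counting neighbouring gene models, and 28 of them were called in all 4 libraries. These genes encode secreted type I interferons and are near-identical copies of one another, and the placement of reads among the copies was not tested. With the changed base, the 31 bases around the site occurred on chromosome 4 for 36 of the 105, against 3 of the 516 variants elsewhere on their own chromosomes. Here the ratio to culture was below that of the whole library in all 4, at 0.648 and 0.574 of it in the inflamed and 0.729 and 0.606 of it in the excluded libraries. Over the 20 of the 28 whose changed window did not occur on chromosome 4, the median ratio was 0.165 and 0.181 in the inflamed and 0.382 and 0.194 in the excluded libraries, also below the library ratios. The phenotypes overlapped in the value over all 28. Excluded libraries were above inflamed ones for 7 of the 28 variants and below for 6, where the shares over all 258 were 17.8% and 17.1%.

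Within the cluster, Ifna11 S139A was the variant with the second smallest p of all 258. Its fractions were 0.0402 and 0.0618 in the inflamed and 0.0565 and 0.0270 in the excluded libraries, and the scaled difference was -0.08 (standard error 0.0256, limma adjusted p = 0.847). Its reference window occurred 8 times in the genome and its changed window once, so the copy of origin is uncertain. Ifna11 A92T, at 1.00 in culture, had 0.0504 and 0.0570 against 0.0876 and 0.050. Ifna2 T102A, also at 1.00 in culture, had 0.252 and 0.303 against 0.401 and 0.244, close to the library ratios. Its changed window occurred 2 times in the genome, so the copy of origin is uncertain there too. By gene, the median scaled value over the culture value ran from 0.266 to 0.446 for Ifna11 (7 variants) and from 0.849 to 1.04 for Ifna5 (2 variants) over the 4 libraries. For Ifna2 (3 variants) it was 1.02 and 0.998 in the inflamed against 0.808 and 0.605 in the excluded libraries, and these groups did not overlap. In Ifna5 (2 variants), Ifna7 (3 variants), Ifna9 (2 variants) and Ifnab (2 variants) the groups did not overlap either, but there the excluded libraries were the higher ones. The other genes of the cluster with variants called in all 4 libraries had overlapping groups. These medians rest on few variants, which are not independent, and no share over gene medians elsewhere was computed. Of single variants, 17.8% of the 258 had both excluded libraries above both inflamed ones and 17.1% below.

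A few variants did not fall with host DNA in any library. Arap2 G230W, in a regulator of small GTPases, had 0.974 and 0.849 in the inflamed, 0.988 and 0.892 in the excluded and 0.942 in the desert library. Hebp1 V86L, in a haem-binding protein, had 1.00 and 0.923, then 0.981 and 0.902, and 0.955. Both were at 0.987 to 1.00 in culture and at 0 in the spleen calls. The Arap2 window occurred 2 times in the chromosomes of GRCm38 and the Hebp1 window once. In both genes inflamed 2-1 and excluded 2-2 were the lower libraries of their group. Sfi1 P1003S, in a centrin-binding protein, lay between 0.0402 and 0.0431 in the 4 libraries and between 0.0437 and 0.0537 in culture, with up to 0.0182 in the spleen. For these 3 genes the unscaled fractions of the phenotypes overlapped.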

How the data were processed

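Exome capture libraries of genomic DNA were sequenced by the authors as paired-end reads on an Illumina HiSeq, mapped to GRCm38 with BWA, realigned and duplicate-marked after the GATK best practices, and called with Strelka against spleen DNA of the wild-type strain. No tool version is given in the sources used here. The labels' extraction text describes an RNA protocol, although the molecule is genomic DNA. The tumour calls were restricted by the authors to variants found in the cultured line, and 0 variants were called in tumours alone. The deposited values are the variant allele fraction, the spleen's fraction for the same site and the call's tier (other units); of the per-sample columns, 7 were not used. The table holds 0 depth values, so depth is unknown and a single fraction has no interval. Wilson 95% intervals are for shares of variants and cover counting error only.

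Tumour fractions were divided by the library's median ratio to the culture mean over the 258 variants called in all 8 libraries. Scaled fractions were compared in limma by lmFit and a moderated test with a mean trend over 4 libraries, at a Benjamini-Hochberg adjusted p under 0.05. This model was tested on simulated data whose noise was independent between variants, which variants of a segment are not. Single values were compared by exact permutation. Segments are runs of at least 20 variants with a culture fraction of 0.25 or more, no 2 neighbours over 5 Mb apart. Named variants were those in the gene lists, those called in 1 phenotype alone, the 5 smallest p in each direction, the 3 highest and 3 lowest genes with at least 4 variants, and the 5 smallest differences; the variants that did not fall with host DNA were picked once the fractions had been seen. Of the excluded pair, 1 variant is not reported here by name. Members and lists were chosen with earlier results of these data known. Alternatives were other scalings, classes, tiers and variant types, all 8 libraries, a block by title number and leave-one-out fits. All 621 reference bases matched GRCm38 (RefSeq), and places came from GENCODE M21. Python 3.11.15, numpy 2.4.6, pandas 2.3.3, scipy 1.17.1, matplotlib 3.10.9, R 4.3.3 and limma 3.58.1 were used.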

Additional observations from a re-analysis of the deposited data

Results flagged for a closer look

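The difference in the tumour to culture ratio between excluded and inflamed libraries had opposite signs for the leading numbers of the titles. Excluded 1-4 was 0.231 above inflamed 1-3, with 361 against 310 calls, whereas excluded 2-2 was 0.0176 below inflamed 2-1 (a difference of -0.0176), with 323 against 319 calls. With 1 library of each phenotype per number, this contrast between the numbers was not tested, and the labels do not say what the leading number marks.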

How the results depend on the processing

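The count of variants that differed between excluded and inflamed libraries was 0 in limma under each of these alternatives: all 8 libraries, no scaling, scaling over the middle class, log2 values, a culture fraction of at least 0.25, single-base variants, tier 1 calls, no interferon cluster and leaving out each library, with smallest adjusted p from 0.0982 to 0.953. When 1 library is left out, the lone library is assumed to vary like the other group. With the leading title number as a replicate block it was also 0 (17 at an unadjusted p under 0.05, smallest adjusted p 0.647). Deviations of libraries with the same number had a Pearson correlation of -0.183 across the 258 variants, so the crossed pairing was added after the data were seen; it gave 2 calls, in Arap2 and Hebp1, and 0 without those genes, where the correlation of the 256 others was 0.111. The ratio difference kept its sign, from 0.00713 without excluded 1-4 to 0.206 without excluded 2-2, and the difference in calls ran from 8.50 to 46.5. The count of variants of the inflamed pair alone was 4 with tier 1 calls and 3 to 13 when a library was left out. For the excluded pair it was 7 with single-base variants and 20 to 36 when a library was left out, since fewer libraries then have to lack or hold a call. The Jaccard difference turned to 0.00368 without the interferon cluster, and the cause was not tested. Of 188 recomputed differences of 15 named variants, 186 kept their direction and side of the threshold; without scaling Hhip N29S turned to 0.0208 and Arap2 G230W to 0.0288, and the cause was not tested. Without depth, the calls used here cannot tell an uncalled variant from an absent one.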
